A study of Mus musculus with 9 samples.

Results

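A set of 10 cytokine genes was followed across 3 unstimulated dendritic cell (DC) subsets of the mouse spleen. The genes were Il12a, Il12b, Il15, Il18, Il27, Il16, Il1b, Il6, Tnf and Tgfb1. The members were chosen by gene name, and all 10 were found once each among the 39179 genes listed. Bulk mRNA sequencing had been performed on CD8pos cDC1 (CD8+ CD11b-), CD8neg cDC2 (CD8- CD11b+) and pDC (plasmacytoid DC, CD317 high) sorted from the spleens of C57BL/6J wild-type mice at steady state, with 3 libraries per subset, from pools of 15 to 17 mice. The mice of the study were 6 to 12 weeks old, no group was stimulated or gene-targeted, and the sort followed depletion of T cell, B cell, granulocyte and erythroid lineages.

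The members fall into families with different routes to a secreted protein. IL-12 and IL-27 are built from paired chains: Il12b encodes the p40 chain that pairs with the p35 chain of Il12a to make IL-12, or with the Il23a product to make IL-23, while the Il27 chain pairs with the product of Ebi3. IL-1 beta and IL-18 are made as inactive precursors that caspase-1 cleaves within the inflammasome, IL-15 is presented at the cell surface on the receptor chain Il15ra, TNF is shed from the membrane by ADAM17, IL-16 is released from a larger precursor, and TGF-beta 1 is held latent by carrier proteins until released. An mRNA level therefore states which chains could be made and not which cytokine was released. cDC1 are known for IL-12 production and cross-presentation to CD8+ T cells, cDC2 for priming CD4+ T cells, and pDC for type I interferon.

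For the 4 members best known for induction through NF-kappaB, namely Il12b, Il1b, Il6 and Tnf, the 200 bases before the transcription start are shown. These genes recur below in the contrast of cDC1 with cDC2 (Il12b and Il1b), near the detection floor (Il6) and in the spread of replicates (Tnf). A link between these bases and the levels was not tested. The sequences are from RefSeq (build GRCm38.p6) and are written 5′ to 3′ in the direction of transcription. Capitals mark matches on either strand to the motifs described next. They come from chr11:44399863-44400062 (plus strand) for Il12b, chr2:129371140-129371339 (minus strand) for Il1b, chr5:30012914-30013113 (plus strand) for Il6 and chr17:35202008-35202207 (minus strand) for Tnf.
Il12b: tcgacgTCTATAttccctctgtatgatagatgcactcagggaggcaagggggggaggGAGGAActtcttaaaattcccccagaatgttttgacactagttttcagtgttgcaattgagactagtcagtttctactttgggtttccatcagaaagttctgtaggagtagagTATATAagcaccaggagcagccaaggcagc
Il1b: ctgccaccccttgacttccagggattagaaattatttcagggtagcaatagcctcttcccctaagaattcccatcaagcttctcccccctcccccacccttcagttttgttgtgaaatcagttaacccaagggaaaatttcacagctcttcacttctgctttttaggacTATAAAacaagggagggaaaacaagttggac
Il6: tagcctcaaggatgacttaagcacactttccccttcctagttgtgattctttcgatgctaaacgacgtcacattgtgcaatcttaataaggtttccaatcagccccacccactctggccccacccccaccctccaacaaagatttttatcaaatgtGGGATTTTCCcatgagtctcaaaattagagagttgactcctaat
Tnf: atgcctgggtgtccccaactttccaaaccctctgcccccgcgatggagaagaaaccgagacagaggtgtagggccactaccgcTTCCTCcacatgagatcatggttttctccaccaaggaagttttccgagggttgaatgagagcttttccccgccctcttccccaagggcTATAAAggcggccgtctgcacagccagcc

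Motifs were searched on both strands in windows of 300 bases, 250 before and 50 after each start. The NF-kappaB consensus was present in the window of Il6, at positions -44 to -35 from the start, and in 1 of the 3 Il16 windows, against 4.51% of all 32851 promoter windows. TATANA was present in the windows of Il12b (-30 to -25), Il1b (-31 to -26) and Tnf (-29 to -24), farther from the start in Il12b (reverse strand) and Il18, and in 24.7% of all windows. The PU box GAGGAA, the motif of the myeloid factor PU.1, was found in Il12b (-143 to -138, and -219 to -214 on the reverse strand) and in Tnf (-117 to -112 on the reverse strand), and in 28.3% of all windows. The AP-1 element TGANTCA was found in Il6 and in another of the Il16 windows (7.81% of all windows). The palindromic matches were found on both strands. Windows were given for 8 of the 10 members (11 windows), and Il15 and Il27 had no entry. A match describes letters only, and the windows of Il12a, Tgfb1 and the remaining Il16 start held none of these letters.

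Library totals ranged from 15806597 to 32453789 counts assigned to genes, so that 3 counts, taken as the floor, corresponded to between 0.0908 and 0.203 CPM (counts per 1000000, scaled with TMM factors). Of the listed genes, 13819 had enough counts to be tested, and 9 of the 10 members were among them. Il12a was not. The marker lists followed the subset labels, in that 8 of 8 pDC markers were higher in pDC than in either conventional subset and 9 of 9 cDC2 markers were higher in cDC2 than in cDC1, although Cd4, Clec10a and Mgl2 were higher still in pDC. Of the 8 cDC1 markers, 7 were lower in cDC2 and 7 lower in pDC than in cDC1, but 4 had higher levels in pDC than in cDC2, and their summed level was 4711 to 5252 CPM in pDC against 6324 to 7139 in cDC1. In bulk samples, a lower share of expressing cells and less mRNA per cell cannot be told apart.

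Most of these cytokine genes were lowest in pDC. Compared with cDC1, pDC had lower Il12b, Il15, Il18, Il27, Il1b and Il6 and higher Tgfb1. Compared with cDC2, pDC had lower levels of the same 6 genes and of Tnf. Between the conventional subsets, cDC1 had more Il12b and cDC2 had more Il1b and Tgfb1. Il16 passed in no contrast of the model with subset alone.

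In counts, 8 of the 9 tested members differed somewhere among the subsets, where 56.0% of all tested genes did (edgeR quasi-likelihood test, adjusted p under 0.05, 3 libraries per subset). In pDC against cDC1, 6 members were lower (24.4% of all tested genes were) and 1 was higher (24.3%). In pDC against cDC2, 7 members were lower (23.3%) and none was higher (22.5%). With the replicate number as a block, 9 members passed in pDC against cDC1 (Il16 and Tnf in addition) and 7 in pDC against cDC2. In cDC2 against cDC1, 2 members were higher (12.7%) and 1 was lower (11.7%), and with the block 6 members passed, the additional ones being Il15, Il16 and Tnf. The percentages are from the model with subset alone. The share of all genes passing with the block is not given here, so the block's counts cannot be set against it. Il12b, Il15, Il27 and Il6 reached the count minimum through the conventional subsets alone, where they are high. The counts of members lower in pDC and the medians below lean on them and are given as a description. The median log2 fold change of the tested members was -3.05 in pDC against cDC1, -3.28 in pDC against cDC2 and -0.21 in cDC2 against cDC1, where the medians of all tested genes were 0.02, -0.01 and 0.03. The contrasts share libraries, so they are not independent of each other.

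**Figure D1:**
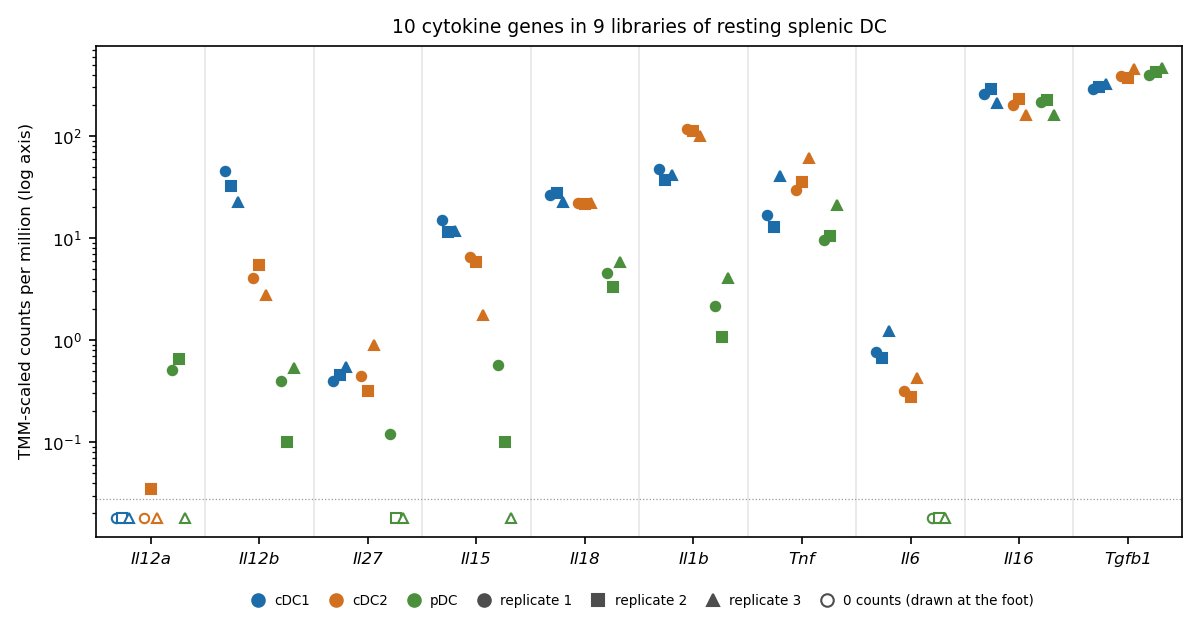
TMM-scaled CPM of the 10 members in each library (log axis), coloured by subset and shaped by replicate number; open symbols at the foot are libraries with 0 counts. Il12b falls from 22.5–45.4 CPM in cDC1 to 2.76–5.46 in cDC2 and at most 0.530 in pDC, whereas Tgfb1 and Il16 stay above 160 CPM in all 9 libraries.

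**Figure D2:**
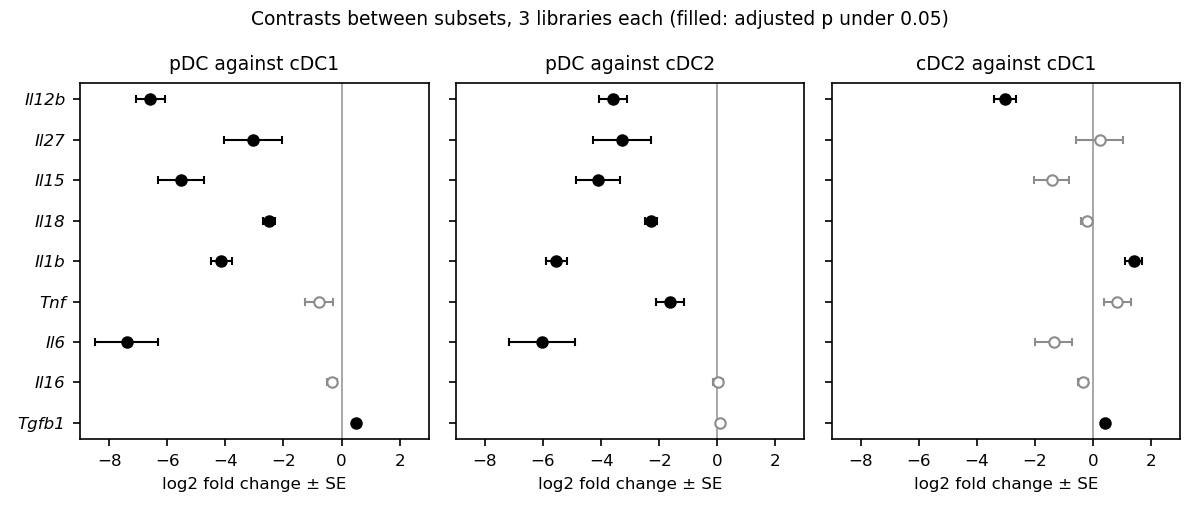
Log2 fold changes (edgeR, points) with their standard errors (bars) for the 9 tested members in the 3 contrasts; filled points passed the adjusted threshold. Most members lie left of zero in both pDC panels, while in cDC2 against cDC1 only Il12b, Il1b and Tgfb1 are filled; the Il6 values in the pDC panels are fitted against 0 counts and are no measure of size.

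Il12b (chromosome 11, 44400063 to 44414033, plus strand, mm10) showed the clearest order, cDC1 over cDC2 over pDC. It stood at 45.4, 32.4 and 22.5 CPM in the cDC1 libraries 1 to 3, at 4.08, 5.46 and 2.76 CPM in cDC2, and at 0.393, 0.101 and 0.530 CPM in pDC. The ranges of the 3 subsets did not overlap, and the pDC values rested on 13, 2 and 9 counts. The cDC2 level was 8.10-fold below that of cDC1 (log2 fold change -3.02 ± 0.38 SE, adjusted p = 0.000339). The pDC level was below cDC1 by -6.59 ± 0.50 (log2, adjusted p = 3.37e-06) and below cDC2 by -3.57 ± 0.48 (adjusted p = 0.000203). Il12b reached the count minimum through the conventional subsets alone, so its p-values against pDC are given as a description. Between same-numbered libraries, the cDC1 excess over cDC2 was 11.1-fold, 5.93-fold and 8.13-fold, so all 3 sorts showed the same direction.

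Markers of cDC1 moved with part of this pattern. Xcr1, the chemokine receptor that defines cDC1, stood in cDC2 at 3.61%, 6.96% and 5.34% of its same-numbered cDC1 library, and Tlr3 at 7.60%, 10.96% and 10.2%. Il12b in cDC2 stood at 8.98%, 16.9% and 12.3% of cDC1, in the same order of libraries as both markers and above each of them. In pDC, Xcr1 stood at 0.958%, 0.147% and 0.386% of cDC1 and Il12b at 0.866%, 0.313% and 2.36%. The part of cDC1 transcripts in the cDC2 and pDC values was not tested.

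The partner chains did not follow Il12b. Il12a (chromosome 3, 68690644 to 68698547, plus strand), which encodes p35, had 0 counts in all 3 cDC1 libraries, where Il12b was highest. In cDC2 it had 0, 1 and 0 counts and in pDC 17, 13 and 0, that is 0.515 and 0.659 CPM in pDC libraries 1 and 2. The pDC signal was thus present in 2 of 3 libraries, and the gene failed the count minimum. When every gene with a count was tested, the adjusted p was 0.0319 against cDC1 and 0.0648 against cDC2, with the 0 in pDC replicate 3 making the subsets overlap. Il23a, the other partner of p40, was at or under the floor of 3 counts in every library.

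Ebi3, which partners the Il27 chain, was abundant in comparison. It ranged from 51.4 to 60.4 CPM in cDC1, from 49.3 to 58.6 in cDC2 and from 26.6 to 37.4 in pDC. The conventional subsets overlapped, and pDC was lower than cDC1 by -0.87 and than cDC2 by -0.85 on the log2 scale (adjusted p = 0.000956 and 0.00121).

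Il27 itself (chromosome 7, 126589010 to 126594941, minus strand) was close to the floor throughout. It stood at 0.401, 0.459 and 0.542 CPM in cDC1, at 0.446, 0.315 and 0.904 in cDC2, and at 0.121, 0 and 0 in pDC. The conventional values rested on 8 to 17 counts per library, and the pDC values on 4, 0 and 0. In pDC it was lower than in cDC1 by -3.05 ± 1.00 (log2, adjusted p = 0.0289) and than in cDC2 by -3.28 ± 0.99 (adjusted p = 0.0211), with the ranges apart in both. These fitted sizes rest on pDC replicate 1, without which they were -6.41 and -6.65. Il27 reached the count minimum through the conventional subsets alone, so its p-values against pDC are given as a description. Without the filter on low counts, the call against cDC1 was lost (adjusted p = 0.0583). The call against cDC1 was lost without any one of the 3 cDC1 libraries or pDC replicate 2 (adjusted p between 0.0592 and 0.0794), and that against cDC2 without pDC replicate 2 (adjusted p = 0.0633). An exon of Il27 overlaps Apobr on the opposite strand by 103 bases. Per kilobase of exon, Ebi3 averaged 48.5 CPM and Il27 0.458 CPM in cDC1, so Il27 was the scarcer chain of the pair.

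Receptors of this family had their own subset pattern. Il12rb1, a chain shared by the IL-12 and IL-23 receptors, stood at 5.05 to 7.25 CPM in pDC against at most 1.17 CPM in the conventional libraries. Il27ra rose from 2.50–4.40 CPM in cDC1 through 9.88–12.3 in cDC2 to 25.3–30.5 in pDC, and passed in all 3 contrasts (adjusted p = 3.08e-06, 0.000656 and 0.000287). Its order of subsets is the reverse of that of Il12b.

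Il15 (chromosome 8, 82331632 to 82403222, minus strand), a survival factor for NK cells and memory CD8+ T cells, was highest in cDC1. The libraries held 14.9, 11.4 and 11.7 CPM in cDC1, at 6.47, 5.88 and 1.75 in cDC2, and at 0.575, 0.101 and 0 in pDC. No ranges overlapped, and the cDC2 library numbered 3 was well below the other two cDC2 libraries. The pDC level was below cDC1 by -5.52 ± 0.79 and below cDC2 by -4.11 ± 0.77 (log2, adjusted p = 0.000274 and 0.00169). The pDC values rested on 19, 2 and 0 counts, and without pDC replicate 1 the fitted differences were -7.73 and -6.31, so their size hangs on that library. Il15 reached the count minimum through the conventional subsets alone, so its p-values against pDC are given as a description. The difference between cDC2 and cDC1 was -1.42 ± 0.61 (adjusted p = 0.13), and -1.59 with the replicate block (adjusted p = 0.0291).

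Il15ra, the chain that presents IL-15, had the same order of subset means. It stood at 8.09 to 11.8 CPM in cDC1, 7.07 to 7.39 in cDC2 and 2.12 to 2.57 in pDC. It was lower in pDC than in cDC1 by -2.20 and than in cDC2 by -1.65 (adjusted p = 3.16e-05 and 0.000226), and its difference between the conventional subsets was -0.54 (adjusted p = 0.102).

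Il18 (chromosome 9, 50554827 to 50581840, plus strand), an inducer of interferon gamma in NK and T cells, separated conventional DC from pDC. Its level was 26.3, 27.4 and 22.7 CPM in cDC1, at 22.3, 21.5 and 22.3 in cDC2, and at 4.54, 3.29 and 5.77 in pDC. The cDC2 libraries differed by a coefficient of variation (CV) of 2.25%, where the median of all genes of at least 5 CPM was 11.4%. The pDC level was 5.63-fold below cDC1 (log2 -2.49 ± 0.20, adjusted p = 5.80e-06) and 4.87-fold below cDC2 (-2.28 ± 0.20, adjusted p = 1.15e-05). The conventional subsets did not differ beyond the spread, at -0.21 ± 0.19 (adjusted p = 0.49), although the lowest cDC1 library lay just above the highest cDC2 library. Il18bp, the soluble inhibitor of IL-18, was also lower in pDC, at 0 to 1.42 CPM against 1.83 to 6.60 in the conventional libraries (adjusted p = 0.0499 against cDC1 and 0.0283 against cDC2).

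Il1b (chromosome 2, 129364570 to 129371139, minus strand), a pyrogenic cytokine, was highest in cDC2. The level was 119, 113 and 101 CPM in cDC2, at 47.1, 37.0 and 42.0 in cDC1, and at 2.15, 1.06 and 4.06 in pDC. The 3 subsets were fully apart, and the same order was seen in every same-numbered set of libraries, with cDC2 over cDC1 by 2.52-fold, 3.04-fold and 2.40-fold. The cDC2 excess over cDC1 was 1.40 ± 0.30 on the log2 scale (adjusted p = 0.00677). The pDC level was lower than cDC1 by -4.14 ± 0.35 and than cDC2 by -5.54 ± 0.37 (adjusted p = 7.62e-06 and 1.67e-06). The overlap with the antisense gene Il1bos is 25 bases of exon.

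The inhibitors of IL-1 were far more restricted than Il1b. Il1rn, the receptor antagonist, stood at 22.4 to 30.3 CPM in cDC2 and at no more than 1.89 CPM in any cDC1 or pDC library. Il1r2, the decoy receptor, stood at 13.5 to 22.2 CPM in cDC2 and at no more than 0.878 CPM elsewhere. Their excess in cDC2 over cDC1 was 5.58 and 5.02 on the log2 scale (adjusted p = 0.000342 and 5.44e-05). Il1a, the other IL-1 agonist, was at 1.54 CPM or less in all libraries and passed in no contrast.

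Genes that process and release IL-1 beta did not share one pattern. Casp1, which encodes the converting protease, stood at 85.6 to 98.3 CPM in cDC2, 28.5 to 32.2 in cDC1 and 38.6 to 49.0 in pDC, and passed in all 3 contrasts. Nlrp3, the inflammasome sensor, stood at 59.0 to 70.1 CPM in cDC2, 25.6 to 28.5 in cDC1 and 11 to 17.5 in pDC, and also passed in all 3. Gsdmd, the pore through which IL-1 beta leaves the cell, differed little between the conventional subsets (0.12, adjusted p = 0.478) and was lower in pDC by -0.75 against cDC1 (adjusted p = 0.000193). Pycard, the inflammasome adaptor, was instead highest in pDC, at 94.8 to 112 CPM against 63.5 to 77.7 in the conventional libraries.

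**Figure D3:**
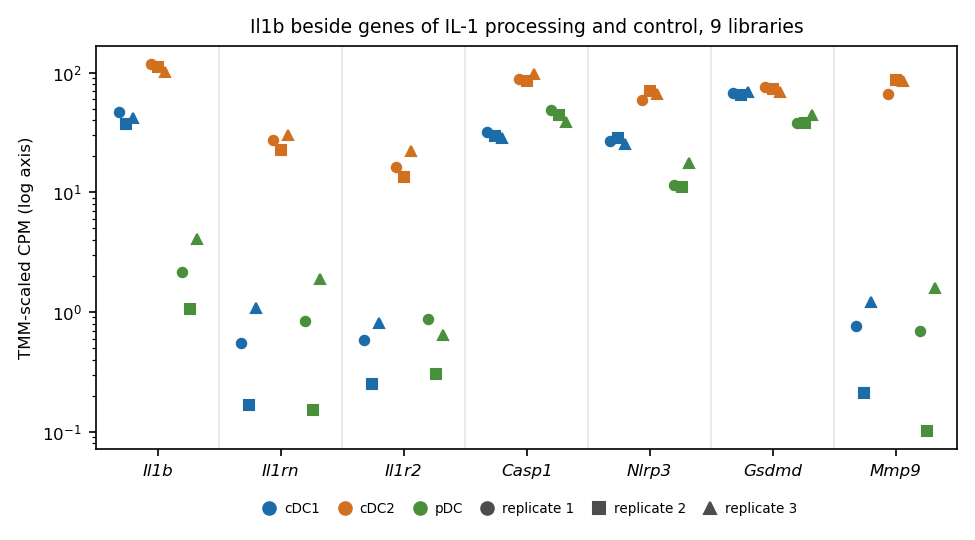
TMM-scaled CPM (log axis) of Il1b and 6 genes of IL-1 processing and control in each library, coloured by subset and shaped by replicate number. Il1b, Il1rn, Il1r2, Casp1, Nlrp3 and Mmp9 are highest in all 3 cDC2 libraries, and Il1rn, Il1r2 and Mmp9 stay at 1.89 CPM or less in cDC1 and pDC.

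Macrophage markers were also higher in cDC2. In cDC2 against cDC1, 7 of the 13 monocyte and macrophage markers measured were higher (Lyz2, C1qa, C1qb, C1qc, Fcgr1, Spic and Ccr2) and none was lower, and no marker was at 0 in any cDC2 library. Among all tested genes, 12.7% were higher and 11.7% lower in this contrast. Their summed level was 488 to 705 CPM in cDC1, 1435 to 2197 in cDC2 and 2306 to 3544 in pDC, where Ly6c2, a gene that pDC also express, made up 1955 to 2715 CPM. C1qa stood at 61.1, 28.0 and 38.6 CPM in the cDC2 libraries, and the library with the least C1qa had an Il1b level of 113 CPM, between the other two. Of the 9 neutrophil markers, 8 were tested and none passed in any contrast. Ly6g, the marker that defines neutrophils, was at 0.319 CPM or less. The summed neutrophil list was 54.2, 7.20 and 69.6 CPM in the pDC libraries, and Lyz2 stood at 176, 48.9 and 302 CPM there, both in the same order of libraries as Il1b. The neutrophil sum was 58.8, 33.1 and 86.5 CPM in cDC2 and 31.6, 9.09 and 42.7 CPM in cDC1. In both of these subsets its order of libraries differed from that of Il1b. The part of macrophage and neutrophil transcripts in the Il1b values was not tested.

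Tnf (chromosome 17, 35199381 to 35202007, minus strand), an acute inflammatory cytokine, varied between the replicates of every subset. It stood at 16.9, 12.8 and 40.8 CPM in cDC1, at 29.5, 35.3 and 60.8 in cDC2, and at 9.66, 10.6 and 20.9 in pDC. Library 3 was the highest in each subset, at 2.75, 1.87 and 2.07 times the mean of the other two in cDC1, cDC2 and pDC. The CV was 64.3% in cDC1 and 39.7% in cDC2, above the 95th percentile of all genes of at least 5 CPM (36.5% and 35.0%), and 45.5% in pDC, just below it (46.4%).

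With subset alone in the model, Tnf differed only between pDC and cDC2, at -1.62 ± 0.48 (adjusted p = 0.0197), and this call was lost without cDC2 replicate 3, pDC replicate 1 or pDC replicate 2 (adjusted p between 0.0642 and 0.075). The difference was -0.78 ± 0.47 for pDC against cDC1 (adjusted p = 0.208) and 0.84 ± 0.47 for cDC2 against cDC1 (adjusted p = 0.244), and without cDC1 replicate 3 the former was -0.13 (adjusted p = 0.827) and the latter 1.49 (adjusted p = 0.0361). With the replicate block all 3 contrasts passed, at -0.71, -1.64 and 0.93 (adjusted p = 0.00626, 4.23e-05 and 0.00224). Within each number the order was cDC2 over cDC1 over pDC, with cDC2 over pDC by 3.06-fold, 3.34-fold and 2.91-fold. Without the 3 libraries numbered 3, an alternative chosen after seeing the data, the 3 contrasts also passed (-0.59, -1.68 and 1.09, adjusted p = 0.0207, 0.000182 and 0.00237).

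The immediate-early genes moved with Tnf. The list held 19 genes known to respond quickly to activation or handling, such as Fos, Jun, Egr1 and Dusp1. Hspa1a, Hspa1b, Nfkbia, Zfp36 and the chemokine genes Cxcl2, Ccl3 and Ccl4 were also in it, so it is not a measure of handling alone. Its summed level was 3820, 2617.5 and 7879.9 CPM in cDC1. It was 4493, 4760.4 and 8119 CPM in cDC2, and 2336, 2375 and 5597 CPM in pDC. Library 3 was again the highest in each subset. Of the 18 genes of this list that were tested, 7 were lower and 1 higher in pDC than in cDC1, 9 were lower and 1 higher in pDC than in cDC2, and 2 rose from cDC1 to cDC2 (median log2 fold changes -1.01, -1.51 and 0.56). Among all tested genes, 24.4% were lower and 24.3% higher in pDC than in cDC1. The shares were 23.3% and 22.5% in pDC against cDC2, and 12.7% rose from cDC1 to cDC2. Dusp1, a phosphatase gene induced by stress, stood at 174, 85.1 and 637 CPM in cDC1, at 199, 178 and 488 in cDC2, and at 41.1, 30.7 and 197 in pDC. Tnf had its highest level where this list was highest in each subset, and the part of handling in the Tnf values was not tested.

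**Figure D4:**
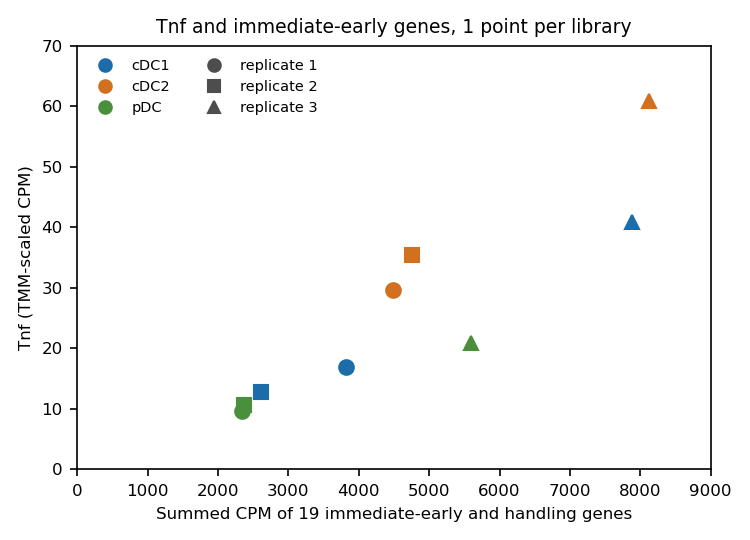
Tnf (TMM-scaled CPM) against the summed CPM of 19 immediate-early and handling genes, 1 point per library, coloured by subset and shaped by replicate number. The 3 triangles (replicate 3) lie highest within their subset on both axes, with Tnf at 40.8, 60.8 and 20.9 CPM in cDC1, cDC2 and pDC.

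Il6 (chromosome 5, 30013114 to 30019981, plus strand), the other acute-phase cytokine of the set, was near the floor. Values were 0.765, 0.667 and 1.22 CPM in cDC1, at 0.319, 0.280 and 0.425 in cDC2, and at 0 in all 3 pDC libraries. These values rested on 16 to 21 counts per library in cDC1 and 8 to 10 in cDC2. Against the mean floor of 3 counts per pDC library, the mean level was at least 6.32-fold higher in cDC1 and at least 2.44-fold higher in cDC2 (adjusted p = 0.000808 and 0.00328). The lowest cDC1 library exceeded the highest pDC floor by 3.78-fold, and the lowest cDC2 library by 1.58-fold. Il6 reached the count minimum through the conventional subsets alone, so these p-values are given as a description. The cDC1 level was above that of cDC2 in all 3 same-numbered sets, by 2.40-fold, 2.38-fold and 2.87-fold, and the difference did not pass (-1.36 ± 0.62, adjusted p = 0.17).

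Genes that shed or restrain TNF and its message were also measured. Adam17, the sheddase, stood at 119 to 163 CPM and passed in no contrast. Rhbdf2, which carries ADAM17 to the cell surface, stood at 119.7 to 180.5 CPM in pDC against 9.07 to 15.0 in the conventional libraries (log2 3.96 and 3.55, adjusted p = 4.22e-07 and 6.73e-07). Zfp36l2, an mRNA-destabilising protein of the tristetraprolin family, passed in all 3 contrasts and was highest in cDC2, at 214 to 299 CPM. Rel, an NF-kappaB subunit, also passed in all 3, at 59.7 to 69.5 CPM in cDC2, 26.4 to 36.0 in cDC1 and 20.4 to 24.4 in pDC. Spi1, which encodes PU.1, stood at 109 to 129.6 CPM in pDC against 429.9 to 606 in the conventional libraries.

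Il16 (chromosome 7, 83642825 to 83745726, minus strand), a chemoattractant for CD4+ cells, had the smallest fold changes among the tested members in the contrasts of pDC with either conventional subset. The libraries held 260.2, 288 and 209.8 CPM in cDC1, at 203, 231 and 161 in cDC2, and at 217, 226 and 162 in pDC. The subsets overlapped throughout, and library 3 was the lowest in each. With subset alone, no contrast passed, at -0.33 ± 0.18 for pDC against cDC1 (adjusted p = 0.163), 0.02 ± 0.18 for pDC against cDC2 (adjusted p = 0.928) and -0.35 ± 0.18 for cDC2 against cDC1 (adjusted p = 0.204). With the replicate block, cDC1 was the higher of each pair (-0.33 and -0.35, adjusted p = 0.00125 and 0.00159). In the same-numbered libraries, cDC1 exceeded cDC2 by 1.28-fold, 1.25-fold and 1.31-fold and pDC by 1.20-fold, 1.27-fold and 1.29-fold. Exons of Il16 overlap Stard5 by up to 1084 bases and 2310044K18Rik by up to 166 bases on the opposite strand, and the strand setting of the counting is not given in the sources used here, so reads of these genes may be included.

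Receptor genes of IL-16 differed more between subsets than Il16. Cd4, to which IL-16 binds, rose from 32.5–46.6 CPM in cDC1 to 385–422 in cDC2 and 1311 to 1451 in pDC. Cd9, described as another receptor, ran the other way, from 253–358 CPM in cDC1 to 4.66–7.11 in pDC.

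Tgfb1 (chromosome 7, 25687002 to 25705077, plus strand), the regulatory member of the set, was the only one that was lowest in cDC1 and passed. Its level was 291, 303 and 322 CPM in cDC1, at 387, 369 and 457 in cDC2, and at 399, 429 and 465 in pDC. The cDC1 range lay below the others, and cDC2 and pDC overlapped. The pDC excess over cDC1 was 1.41-fold (log2 0.50 ± 0.11, adjusted p = 0.00369) and the cDC2 excess 1.33-fold (0.41 ± 0.11, adjusted p = 0.0211). The cDC2 call was lost without cDC1 replicate 1, cDC1 replicate 2 or cDC2 replicate 3 (adjusted p between 0.0664 and 0.0845). pDC and cDC2 differed by 0.09 ± 0.11 (adjusted p = 0.535).

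Genes named for the latency, activation and receipt of TGF-beta were unevenly shared. Nrros, which tethers latent TGF-beta on myeloid cells, stood at 340.2 to 426 CPM in cDC2, 132 to 169.8 in cDC1 and 146 to 163 in pDC. Ltbp2, a matrix protein gene, was instead highest in cDC1, at 42.8, 41.0 and 24.9 CPM in cDC1, 4.72, 3.54 and 2.29 in cDC2 and 0.333, 0.101 and 0 in pDC. It is listed here by its family name, and whether its product carries TGF-beta was not tested. Tgfbr1 and Tgfbr2, the receptor chains, were both highest in pDC, at 114 to 138 CPM and 147 to 155 CPM. Itgb6, an integrin chain that activates TGF-beta, had 0 counts in all libraries, and Itgb8 did not exceed 0.146 CPM.

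Levels were compared between genes per kilobase of exon (CPM per kb, exon union of GENCODE M21). In cDC1 the order of the members was Tgfb1 (60.5 ± 3.08, SD, n = 3), Il16 (32.1 ± 5.02), Il18 (24.7 ± 2.41), Il1b (22.0 ± 2.64), Il12b (17.0 ± 5.85), Tnf (14.4 ± 9.23), Il15 (5.61 ± 0.868), Il27 (0.458 ± 0.0694) and Il6 (0.364 ± 0.121), with Il12a at 0. The ranges of Il18, Il1b, Il12b and Tnf overlapped from neighbour to neighbour, as did those of Il27 and Il6. In cDC2 Il1b (58.1 ± 4.75) moved up to follow Tgfb1 (80.2 ± 9.25), and Tnf (25.6 ± 10.2), Il16 (25.2 ± 4.49) and Il18 (21.4 ± 0.481) overlapped. Il12b and Il15 were next in cDC2, both at 2.08 and overlapping. In pDC, Tgfb1 (85.5 ± 6.51) was followed by Il16 (25.6 ± 4.38), Tnf (8.37 ± 3.81), Il18 (4.40 ± 1.20) and Il1b (1.27 ± 0.797), and each of the other members averaged 0.230 or less. No window of 75 bases, the read length, of any member transcript was shared with a transcript of another gene.

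Genes with profiles most like each member over the 9 libraries were ranked by Pearson's r of log2(CPM + 1), as a description. For Il12b they were Ltbp2 (r = 0.992), Ece1 and Fnbp1l, and for Il1b they included Sall2 (r = 0.996) and Ostf1. For Il18 they were Prr11 (r = 0.998), Hnrnpll and Zbtb46, and for Il15 Eif4h (r = 0.990), Eif4e2 and Alyref. Such likeness was common, since 507 of 10204 genes exceeded 0.95 for Il18, 363 for Il1b and 225 for Il12b. The number was 173 for Il6 (Mtch2 the nearest, r = 0.994), 128 for Il15, 32 for Tgfb1 (Ubl3, r = 0.987), 17 for Tnf (Yaf2), 17 for Il27 (Sephs1) and 16 for Il16 (Nop14). The 9 libraries share subset and number, which enter all of these values.

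Of 55 other cytokine ligand genes, a list that also holds Ebi3 and Il23a from above, 54 were listed by that name. At or under the floor in every library were 19, among them Il2, Il3, Il5, Il13, Il21, Il22 and Csf2. Another 19 were tested, and Ebi3 is among those counted below as lower in pDC. In cDC2 against cDC1, 8 of the 19 were higher (12.7% of all tested genes were) and none was lower (11.7%), with a median log2 fold change of 1.23. In pDC against cDC2, 10 were lower (23.3%) and none was higher (22.5%). In pDC against cDC1, 4 were lower (24.4%) and 2 higher (24.3%). Lif, with 0 counts in pDC, and Fasl, with at most 5 counts in any library outside cDC2, reached the count minimum only through the subsets where they are high. The counts and the median of this list lean in part on such genes and are given as a description. The genes higher in cDC2 included Ltb (275 to 329 CPM against 40.9 to 71.0 elsewhere), Lta, Tnfsf8 and Fasl of the TNF superfamily. Summed T cell markers stood at 33.2 to 52.7 CPM in cDC2, 15.2 to 20.7 in cDC1 and 71.7 to 88.8 in pDC. Summed NK cell markers stood at 89.5 to 184, 131 to 165 and 26.1 to 59.1 CPM in the same order. Their median log2 fold changes in cDC2 against cDC1 were 1.22 (T cell) and 1.69 (NK cell). The part of T and NK cell transcripts in these ligand values was not tested. Tnfsf14, which encodes LIGHT, passed in all 3 contrasts, at 11.8 to 18.6 CPM in cDC2, 3.66 to 4.99 in cDC1 and 0.101 to 1.30 in pDC. Tnfsf10, which encodes TRAIL, was low in cDC1 (0.542 to 1.20 CPM) and higher in cDC2 (4.30 to 12.6) and pDC (7.87 to 11.1). Tnfsf10 and Csf1 were the 2 genes higher in pDC than in cDC1. Csf1 stood at 3.71 to 6.54 CPM in pDC and 1.96 to 3.50 in cDC1.

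Among 18 tested genes of cytokine processing, release and carriage, 5 were higher and 1 (Ltbp2) was lower in cDC2 than in cDC1. Against pDC, 11 were lower in pDC than in cDC2 and 4 higher, and 7 were lower than in cDC1 and 3 higher. Of 17 genes of mRNA stability and induction, 9 were higher and 4 lower in pDC than in cDC1, 2 were higher and 7 lower in pDC than in cDC2, and 5 were higher and 2 lower in cDC2 than in cDC1. Irf8 was highest in pDC (4032 to 4553 CPM) and lowest in cDC2 (216 to 309 CPM), and Irf5 was highest in cDC1 (428 to 490.3 CPM). Of 20 receptor chains, 10 were higher and 2 lower in cDC2 than in cDC1, 7 were higher and 5 lower in pDC than in cDC1, and 7 were higher and 9 lower in pDC than in cDC2. Among all tested genes, 12.7% were higher and 11.7% lower in cDC2 against cDC1. The shares were 24.3% and 24.4% in pDC against cDC1, and 22.5% and 23.3% in pDC against cDC2. Some counts of these lists lie near such shares. The median log2 fold changes, with the contrasts in the order used for the members, were 0.02, -0.95 and 0.22 for processing, 0.43, -0.10 and 0.49 for mRNA stability and induction, and 0.18, -0.68 and 1.00 for the receptor chains, against the near-zero medians of all genes given above.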

How the data were processed

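Bulk mRNA of sorted splenic DC was sequenced by the authors (TruSeq Stranded mRNA, NextSeq500, 1x75b). Per the labels' processing notes, STAR, SAMtools, MultiQC and featureCounts were used with mm10. Versions, annotation and strand setting are not given in the sources used here. The deposited table holds raw read counts per gene, not normalized.

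Members and lists were chosen with earlier results of these data known. Named from each list were genes past the threshold in the most contrasts and genes at or under the floor in all libraries, and further genes were named after their values were seen. Genes were filtered with filterByExpr (minimum count 10), scaled by TMM and tested with the quasi-likelihood test of edgeR 4.0.16 (R 4.3.3) on all 9 libraries with subset alone, with Benjamini-Hochberg adjustment over 13819 genes (threshold 0.05). CPM are counts scaled to TMM-adjusted library sizes. Scripts were tested on simulated data. Alternatives were the replicate block, DESeq2 1.42.0, limma-voom (limma 3.58.1), other scalings, no filter, 6 libraries only, a minimum absolute log2 fold change of 1 and leaving libraries out. Floors cover counting error only. Depth was 15806597 to 32453789 counts per library.

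The labels give same-numbered libraries of the 3 subsets the same date code, and their deviations from the subset means correlated (r 0.266 to 0.543 over 9 same-number pairs, against -0.472 to 0.170 over 18 others). The numbers were therefore taken to pair the samples in the replicate block and in the same-numbered ratios. The main test, with subset alone, does not use this pairing. Whether same-numbered subsets came from the same pool of mice is not given in the sources used here. Positions are from GENCODE M21 (GRCm38), the build named in the labels, and promoters from RefSeq. Of the listed genes, Adgre1, Jchain and Il36g were not matched by name. Some items are not reported here.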

Additional observations from a re-analysis of the deposited data

How the results depend on the processing

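Of 459 values obtained for the fold changes of the 9 tested members under the alternatives, 428 kept their direction and their side of the threshold. With the replicate block, 6 members passed in cDC2 against cDC1 in place of 3, and 6 passed there without the 3 libraries numbered 3, an alternative chosen after seeing the data. The shares of all tested genes passing in these fits are not given here. The block changed the calls of Il15, Il16 and Tnf given above and no other member's call. The cause of these differences was not tested. When libraries were left out in turn, 6 to 7 members differed among the subsets, 6 to 7 passed in pDC against cDC1, 5 to 7 in pDC against cDC2 and 2 to 4 in cDC2 against cDC1. The sign changed for a pair of uncalled fold changes. Il27 in cDC2 against cDC1 was -0.29 without cDC2 replicate 3 and -0.19 without the 3 libraries numbered 3 (up to 0.50, without cDC2 replicate 2), and Il16 in pDC against cDC2 was -0.10 without cDC2 replicate 3, -0.03 without pDC replicate 1 and -0.07 without pDC replicate 2 (up to 0.16, without pDC replicate 3). Il15 in cDC2 against cDC1 also passed with limma-voom and in the fit of 6 libraries (adjusted p = 0.0192 and 0.0357), and Il27 in pDC against cDC1 did not pass without the filter (adjusted p = 0.0583) nor against cDC2 in the fit of 6 libraries (adjusted p = 0.0612). Scaling by library size alone shifted the median of all genes by 0.11 (log2) in cDC2 against cDC1, with 2204 genes higher and 1287 lower in place of 1760 and 1610, and turned no member's direction. The values of Il12a, Il6 and Il27 rest on few counts.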
